A study of Mus musculus with 6 samples.

Results

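Intermediate filament genes of 2 kinds were followed in C2C12, a line of mouse muscle precursor cells that forms myotubes in low serum: 5 keratins of simple, single-layered epithelium (Krt7, Krt8, Krt18, Krt19 and Krt20) and 3 filament genes of mesenchymal, progenitor and muscle cells (Vim, Nes and Synm). These 8 genes are members out of 20659 genes named on the array. They were chosen by gene family with the results of this comparison already known, and all 12 probes whose RefSeq accession maps to them are described. Their levels and differences are therefore given as a description, without a test. The control cells (si-NC, 3 arrays) had received a control small interfering RNA, and the others (si-SYISL, 3 arrays) one targeting SYISL, a long non-coding RNA. No probe here is assigned to SYISL, so its knockdown was not checked. Both groups were grown in 10% fetal bovine serum, transfected, and then kept for 2 days in 2% horse serum, and 1 µg of total RNA was labelled with Cy3 for each single-colour Agilent array.

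Intermediate filaments are rope-like polymers that give cells mechanical strength. Keratins assemble only as pairs of a type I and a type II chain, and the pair of Krt18 (type I) and Krt8 (type II) is the first to appear in the embryo and is kept in simple epithelia such as liver and gut. Vimentin, nestin and synemin belong to other filament classes: vimentin builds the network of mesenchymal cells and myoblasts, nestin joins it in progenitor cells and young myotubes, and synemin links desmin and vimentin filaments to the muscle membrane.

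On the 6 arrays 78.2% to 90.6% of non-control spots were well above background (78.2% to 84.6% with si-NC and 87.9% to 90.6% with si-SYISL), and 0 spots were saturated. Within each group, replicates 1 and 3 lay closer together than repeated spots of 1 probe do, with a chi-square per probe of 0.26 (si-NC) and 0.219 (si-SYISL) over 399 probes against 25 to 166 in the other pairs of arrays, so each such pair was averaged and counted as 1 sample. This left 2 samples in each group, and nothing in the labels says that they were separate cultures. All 12 skeletal muscle markers examined were well above background on all 6 arrays, among them Des, Myod1, Myog, Myh3 and Ckm. Probes entered the fit if 1 group or both had them well above background on its 3 arrays, which held for 10 of the 12 probes and 7 of the 8 genes. Krt7 passed only through its si-SYISL arrays. The faintest passing spot had an intensity of 18.3 to 27.1 on the si-NC arrays and of 11.7 to 15.6 on the si-SYISL arrays. A change of the flag alone is therefore not read as a change in level. In what follows a signal is the deposited intensity of a spot, and a difference is si-SYISL minus si-NC on the log2 scale after each array's 75th percentile was subtracted, relative to the median difference of all 28553 features (0.16), ± SE of the fit with 2 samples in each group.

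The promoter windows of the genes that stood highest in si-SYISL, Krt8 and Krt18, and of Krt7 are shown here because these genes lie in 1 keratin cluster on chromosome 15. The windows run from 250 bases before to 50 after the RefSeq start site (GRCm38.p6), at chr15:102004293-102004592 on the minus strand for Krt8, chr15:102027966-102028265 on the plus strand for Krt18 and chr15:101412153-101412452 on the plus strand for Krt7. Capitals mark matches on either strand to the TATA box TATAAA, the Sp1 box GGGCGG, the AP-1 site TGANTCA or the E-box CANNTG, a motif that myogenic bHLH factors and the Snail and Zeb repressors are known to bind.
Krt8: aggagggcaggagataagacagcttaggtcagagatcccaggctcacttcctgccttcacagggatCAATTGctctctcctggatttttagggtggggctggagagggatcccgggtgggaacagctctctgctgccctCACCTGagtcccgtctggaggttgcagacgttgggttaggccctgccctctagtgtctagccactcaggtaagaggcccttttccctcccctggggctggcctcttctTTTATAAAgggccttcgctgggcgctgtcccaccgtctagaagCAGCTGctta
Krt18: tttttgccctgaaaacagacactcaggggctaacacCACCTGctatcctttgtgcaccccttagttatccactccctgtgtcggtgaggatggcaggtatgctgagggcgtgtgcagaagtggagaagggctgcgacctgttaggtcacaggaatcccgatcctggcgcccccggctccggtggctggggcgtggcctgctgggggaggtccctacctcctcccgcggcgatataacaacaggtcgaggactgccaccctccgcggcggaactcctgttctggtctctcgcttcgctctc
Krt7: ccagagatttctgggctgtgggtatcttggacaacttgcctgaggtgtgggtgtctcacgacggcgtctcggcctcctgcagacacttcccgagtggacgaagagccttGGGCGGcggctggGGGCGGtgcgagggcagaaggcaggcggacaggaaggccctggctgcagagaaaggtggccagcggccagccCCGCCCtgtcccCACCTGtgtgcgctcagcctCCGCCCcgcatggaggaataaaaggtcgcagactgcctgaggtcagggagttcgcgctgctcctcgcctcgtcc
Krt8 and Krt18 point away from each other with start sites 23.9 kb apart. The 3 windows each hold the E-box form CACCTG, which 20.2% of all 32851 promoter windows of this length hold on either strand, and 3 of the 7 members with a window hold it. Any CANNTG occurs in 72.3% of all windows. TATAAA was found in the Krt8 window (13.6% of all windows), where it overlaps its own reverse complement, and GGGCGG in the Krt7 window at 4 places (35.7% of all windows). TGANTCA, present in 7.81% of all windows, was found in none of the 3. These matches describe the letters only.

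Krt8 and Krt18 were higher in the cells that received si-SYISL, 4.79-fold and 7.88-fold relative to all features (log2 differences of 2.26 and 2.98). The Krt18 value is less certain, since 1 of its 2 si-NC samples was not well above background: it was 2.33 without that sample and 1.60 with another background correction (normexp), with which Krt8 was 1.12. Krt7, the other simple type II keratin, was dim and slightly higher. Krt19, a type I keratin, Vim, Nes and Synm lay close to the median of all features. Both chains of the classical simple epithelial pair were thus higher, while the mesenchymal filament transcripts lay near the rest of the array.

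Krt18, the type I chain of the pair, had signals of 45.9, 20.6 and 48.4 intensity units on si-NC replicates 1 to 3 and of 215, 246 and 227 on si-SYISL replicates 1 to 3. All 3 si-SYISL arrays lay above all si-NC arrays, and si-NC replicate 2 was not well above background. The difference was 2.98 ± 0.50, the 6th highest of the 28553 features. Its size rested in part on the low signal of si-NC replicate 2, and leaving out the averaged replicates 1 and 3 of si-NC raised it to 3.64.

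Krt8, the type II partner that Krt18 needs for a stable filament, had signals of 43.5, 37.0 and 42.5 with si-NC and of 165, 198 and 168 with si-SYISL. Each of its 6 spots passed as well above background, and the groups did not overlap. The difference was 2.26 ± 0.26, ranking 25th, and it lay between 2.01 and 2.53 when 1 of the 4 samples was left out. Of all features 0.144% were at least 4-fold higher and 2.23% were at least 2-fold higher. Krt8 and Krt18 are both past 4-fold, which is how they stood out when the members were chosen, so nothing is read from that share.

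Krt7, the type II keratin of ducts and of the bladder, had signals of 18.3, 19.7 and 19.1 with si-NC and of 30.8, 23.2 and 37.6 with si-SYISL. No si-NC array and every si-SYISL array was well above background. It was at least 1.45-fold higher before the median of all features was subtracted, with its si-NC level on each array taken as no lower than the faintest passing signal there, and the measured difference was 0.63 ± 0.13. Its size depended on the processing: it was 0.33 with quantile normalisation and 0.08 when the background was corrected with normexp.

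Krt19, a small type I keratin of ducts and progenitor cells, was well above background on all arrays, with signals of 114, 122 and 130 in si-NC and of 122, 90.3 and 138 in si-SYISL. The groups overlapped, and the difference was -0.10 ± 0.13. Krt20, the type I keratin of mature gut and bladder lining, had signals of 9.04, 14.8 and 17.1 with si-NC and of 13.6, 19.7 and 16.1 with si-SYISL. It failed the background flag on all si-NC arrays and passed on 2 of the 3 si-SYISL arrays, so it was left out of the fit and no fold is given.

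**Figure D1:**
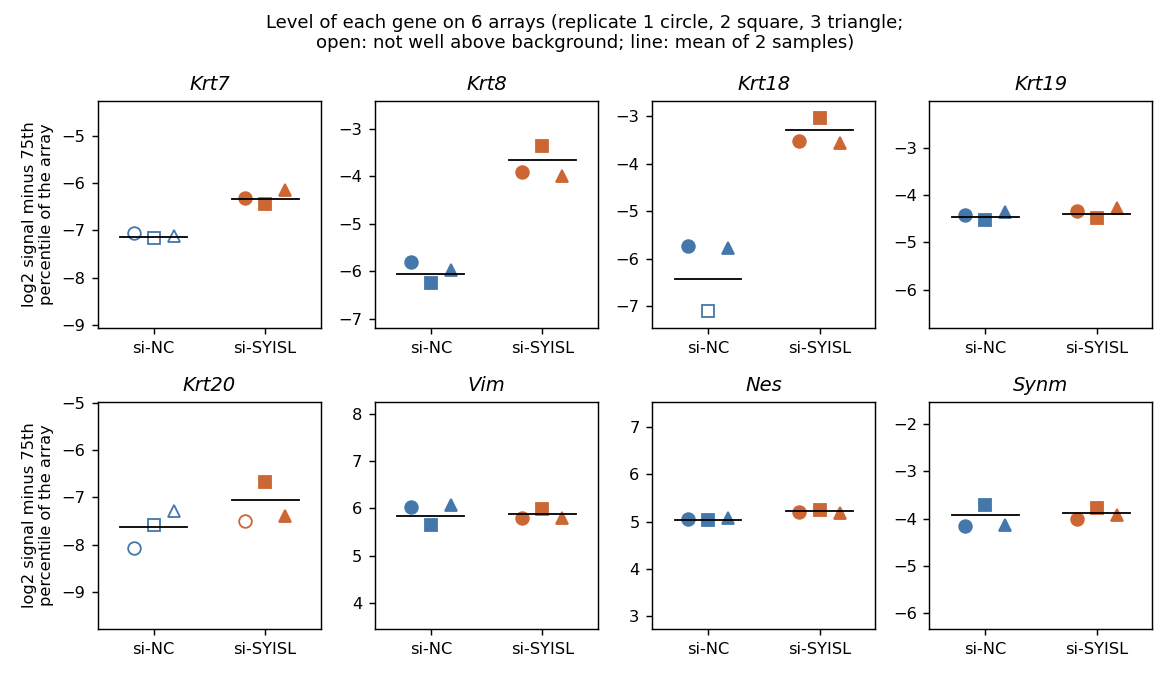
Log2 signal minus the 75th percentile of the array for the 8 genes in si-NC (blue) and si-SYISL (orange), with a circle, square and triangle for replicates 1, 2 and 3, open symbols for arrays not well above background, and a line for the mean of the 2 samples. Each panel spans the same range on its vertical axis. The arrays of the 2 groups do not overlap for Krt7, Krt8, Krt18 and Nes. The share of all features without overlap was counted by averaged samples and not by arrays: 46.3% had both si-SYISL samples above both si-NC samples. By samples this also held for Krt20, which did not pass the filter and whose arrays overlap. The si-NC arrays of Krt18 are widely spread, with an open symbol for replicate 2.

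Vim, which encodes vimentin, was among the bright genes, with signals of 159354, 141734 and 178777 on the si-NC arrays and of 135970, 127594 and 150392 on the si-SYISL arrays. After scaling, its samples overlapped: the 2 si-NC samples were at 6.05 and 5.65 and the 2 si-SYISL samples at 5.80 and 5.98 (log2 above the 75th percentile). The difference was -0.12 ± 0.18, and leaving out the averaged si-NC replicates 1 and 3 turned its sign (0.07).

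Nes, which encodes nestin, had signals of 80643, 92229 and 89262 with si-NC and of 90077, 76532 and 97025 with si-SYISL. The scaled samples were tight, at 5.06 and 5.03 in si-NC and 5.19 and 5.24 in si-SYISL. The difference was 0.01 ± 0.11 relative to all features, and with quantile normalisation, the deposited series matrix or normexp background it was -0.05.

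Synm, which encodes synemin, was read by 5 probes that did not all behave alike. The brightest, which stands for the gene, had signals of 137, 218 and 151 with si-NC and of 152, 148 and 177 with si-SYISL, with overlapping groups and a difference of -0.11 ± 0.20. It was 0.14 without si-NC replicate 2 and -0.34 without the other si-NC sample. Another pair of probes for the same transcript differed by 0.09 and -0.14. A further kept probe differed by -0.40 and had signals of 75.8, 38.5 and 90.5 with si-NC and of 35.3, 43.0 and 41.4 with si-SYISL: it was lower in si-SYISL for replicates 1 and 3 and higher for replicate 2. The only probe for another Synm transcript was not well above background on any array.

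**Figure D2:**
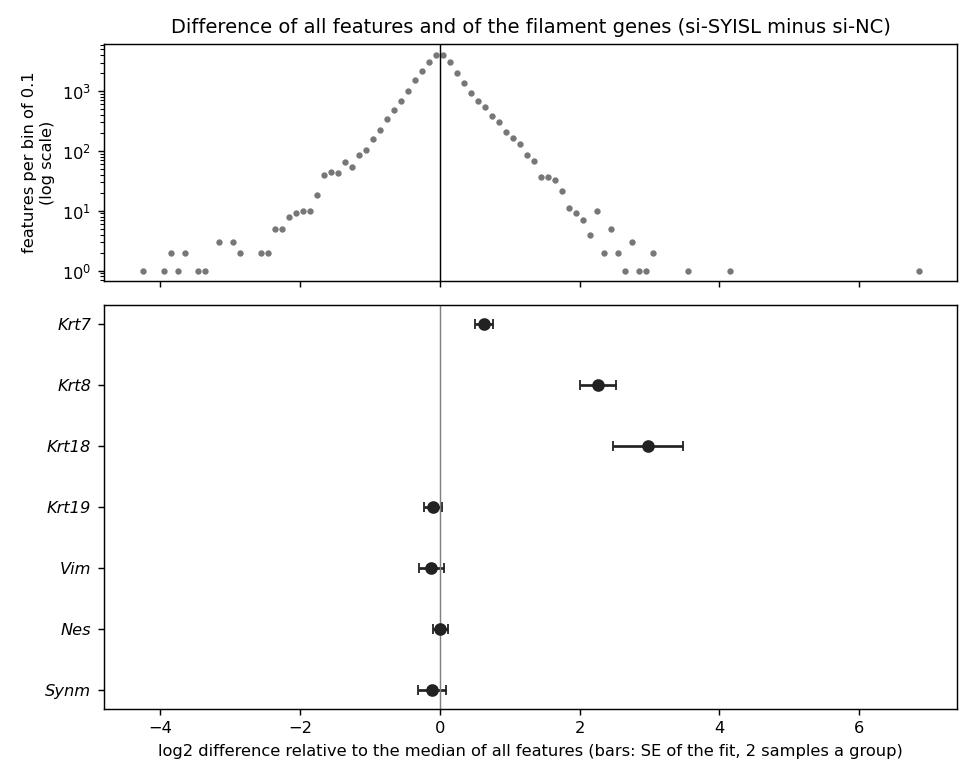
The upper panel shows the number of features (log scale) in each bin of 0.1 of the log2 difference, and the lower panel the difference ± SE of the 7 genes that passed the filter, all relative to the median of all features. Krt18 at 2.98 and Krt8 at 2.26 lie in the sparse upper tail, Krt7 at 0.63 on its slope, and the other 4 genes near 0.

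Of the 7 genes in the fit, 4 (Krt7, Krt8, Krt18 and Nes) had both si-SYISL samples above both si-NC samples, as did 46.3% of all features before the median was subtracted, and 0 had both below, as did 15.8%. Nothing is read from this count, because Krt8 and Krt18 were known to be high when the genes were chosen and Krt7 passed the filter only through the group where it is higher. The median difference of the 7 was 0.01 against 0 by definition for all features, with a range of -0.12 to 2.98. Across the fit limma called 0 of 28553 features at an adjusted p of 0.05 (0% called; the smallest adjusted p was 0.0842), and 6463 had an unadjusted p under 0.05, 16.8% of all features higher and 5.86% lower.

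Dim features as a class were higher in si-SYISL: split into 4 bins of equal size by brightness, features had a median difference, not yet centred, of 0.36 in the dimmest bin, 0.17 in the next, 0.07 in the one after and 0.08 in the brightest. Krt8 and Krt18 fall in the bin next to the dimmest and lay 2.25 and 2.97 above its median, and Krt7, in the dimmest, lay 0.43 above its own. The part of the larger share of passing spots with si-SYISL in these differences was not tested. With normexp background, which adds an offset of 50 before taking logs, the difference was 1.12 for Krt8 and 1.60 for Krt18. The first scan held replicates 1 and 2 of si-NC and si-SYISL, and the second held replicate 3 of each. Within the first scan the differences were 2.25 for Krt8, 2.98 for Krt18 and 0.57 for Krt7. Within the second, with 1 array in each group, they were 1.87, 2.12 and 0.87. With the scan as a block they were 2.26, 2.97 and 0.63.

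**Figure D3:**
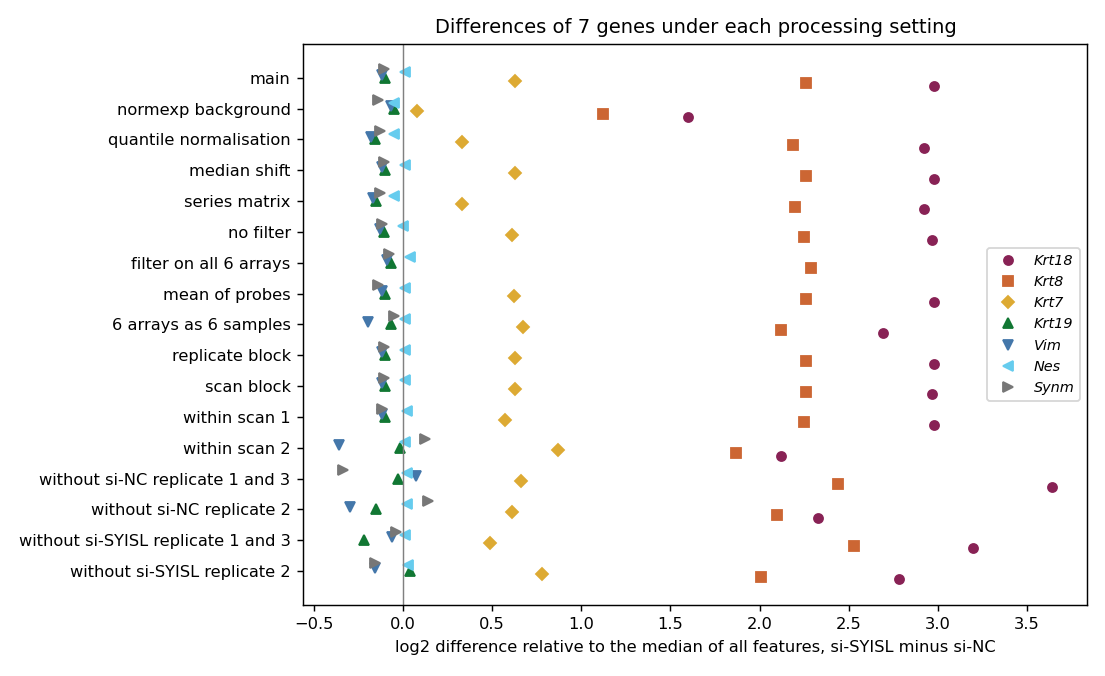
Log2 differences of the 7 genes, relative to the median of all features, under each processing setting in turn (rows), with 1 symbol and colour for each gene. Krt18 and Krt8 stay to the right of the others in each setting that keeps them, but move from 2.98 and 2.26 to 1.60 and 1.12 with normexp background, and Krt7 moves to 0.08.

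Genes beside Krt8 and Krt18 on the chromosome were examined next. Krt18 is the next protein-coding gene after Krt8 in the type II cluster, the only type I keratin there, and beyond it lies Eif4b, a translation initiation factor gene, which differed by -0.08 ± 0.12. On the other side of Krt8 lies Krt78, which no si-NC array measured well above background and which was at least 1.23-fold higher before subtraction (0.87 ± 0.51). Its signals were dim, at 18.9, 8.46 and 23.2 with si-NC and 27.1, 19.1 and 28.4 with si-SYISL. The Krt78 difference thus rested largely on si-NC replicate 2, and the gene passed the filter only through its si-SYISL arrays. The next genes were Krt79 (-0.32 ± 0.26), Krt4 (0.31 ± 0.16) and Krt76 (0.03 ± 0.17). These neighbours were named for their place in the chromosomal order.

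**Figure D4:**
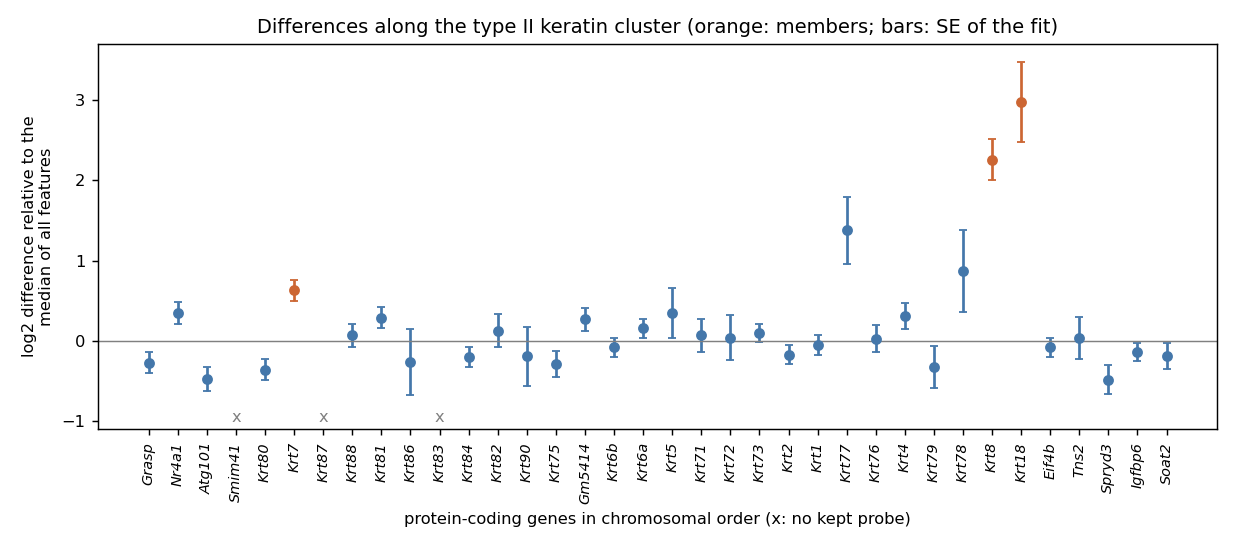
Log2 difference ± SE of protein-coding genes in chromosomal order across the type II keratin cluster, from 5 genes before Krt7 to 5 genes after Krt18; members are orange, other genes blue, and an x marks a gene with no kept probe. Krt8 and Krt18 stand side by side at 2.26 and 2.98, while Eif4b next to them is at -0.08.

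Counts of genes higher or lower in both si-SYISL samples are taken before the median of all features is subtracted, and are given as a share of the genes that passed, to be set beside 46.3% (higher) and 15.8% (lower) of all features. Of 24 other type I keratins, 19 passed the filter and 0 were called by limma over all features. Their median was -0.03, 9 (47.4%) were higher in both si-SYISL samples and 0 were lower in both. Krt40, a hair keratin, was not well above background with si-NC and was at least 1.57-fold higher before subtraction (1.29 ± 0.86). Its signals were 29.9, 6.01 and 32.3 with si-NC and 31.9, 30.3 and 34.7 with si-SYISL. Both values for Krt40 thus rested largely on si-NC replicate 2. Krt27, of the inner root sheath, differed by 0.40 ± 0.23, and Krt17, a keratin of stressed epidermis, by -0.06 ± 0.12, the last named after its value was seen. Krt23 and Krt32 failed the background flag on all si-NC arrays and passed on 2 and 1 of the 3 si-SYISL arrays. Signals of Krt23 were 5.18, 5.66 and 5.43 with si-NC and 14.6, 16.2 and 12.7 with si-SYISL. Those of Krt32 were alike, at 11.9, 17.2 and 15.3 and at 11.4, 14.1 and 13.9. Krt25 and Krt26 passed on none of the 6 arrays. Of 23 other type II keratins, 21 had a probe, 20 passed and 0 were called, with a median of 0.05, 7 (35%) higher in both si-SYISL samples and 1 (5.0%) lower. The most different was Krt77, a skin keratin, at 1.38 ± 0.42 (well above background on 1 of 3 si-NC arrays).

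Among 13 other intermediate filament genes, all of which passed, 0 were called, and the median was -0.04, with 5 (38.5%) higher in both si-SYISL samples and 4 (30.8%) lower. The neurofilament gene Nefm had signals of 306, 368 and 335 with si-NC and of 119, 114 and 132 with si-SYISL, a difference of -1.45 ± 0.13 (limma adjusted p = 0.0842). The nuclear lamin gene Lmnb1 differed by -1.20 ± 0.11 (limma adjusted p = 0.0842). Des, which encodes desmin, the muscle filament that synemin joins, differed by -0.07 ± 0.29. Named after their values were seen, Sync, the muscle filament protein syncoilin, differed by -1.18 ± 0.18 and Lmna, the A-type lamin gene, by 0.07 ± 0.12.

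Linkers that tie filaments to junctions lay on both sides of the median. Of 18 linker and desmosome genes, 17 passed, 0 were called, 7 (41.2%) were higher and 3 (17.6%) lower in both si-SYISL samples, and the median was 0.03. Dst, which encodes a spectraplakin, differed by -1.07 ± 0.41 and Pkp1, the desmosomal plakophilin, by -0.89 ± 0.12 (limma adjusted p = 0.268 and 0.121). Plec and Dsp, the plectin and desmoplakin genes, differed by 0.22 ± 0.14 and -0.46 ± 0.20, both named after their values were seen, and Dsc2, a desmosomal cadherin gene, was not well above background on any array. Of 15 costamere partners of desmin and synemin, all passed, 0 were called, 7 (46.7%, near the share of all features) were higher and 6 (40.0%, against 15.8%) lower, with a median of -0.10. The dystroglycan gene Dag1 differed by -1.26 ± 0.18 (limma adjusted p = 0.119). Actn2, the Z-disc alpha-actinin, differed by 1.20 ± 0.12 and was well above background on 1 of 3 si-NC arrays.

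Other genes of simple epithelium were spread on both sides of the median. Of 23 listed genes, 19 passed, 0 were called, 6 (31.6%, against 46.3% of all features) were higher and 3 (15.8%, the share of all features) lower in both si-SYISL samples, and the median was 0.02. Cdh1, the epithelial cadherin, was not well above background with si-NC and was at least 1.45-fold higher before subtraction (signals of 13.8, 19.7 and 15.3 against 29.9, 25.3 and 31.5). Epcam, an epithelial adhesion protein gene, had signals of 6.35, 4.33 and 6.56 with si-NC and of 63.8, 16.2 and 76.8 with si-SYISL, and passed on the 2 si-SYISL arrays of replicates 1 and 3 only. Marveld2, a tight junction gene, failed the flag on all si-NC arrays and passed on 2 si-SYISL arrays. Its signals were nonetheless alike, at 19.9, 17.7 and 15.6 with si-NC and 20.1, 15.2 and 17.4 with si-SYISL. The epithelial transcription factor gene Ovol1 differed by -1.55 ± 0.15 and the tight junction gene Ocln by -1.38 ± 0.15 (limma adjusted p = 0.0888 and 0.0983), although a second, dimmer Ocln probe differed by 0.14. Summed levels, here and below, are taken without subtracting the median difference of all features (0.16). The summed level of the 23 marker probes was 478% to 490% of the array's 75th percentile with si-NC and 385% to 450% with si-SYISL. Most of it was 1 gene, Ovol2, an epithelial transcription factor gene (347% to 361% and 243% to 310%, a difference of -0.53 ± 0.16, named after its value was seen), and the sum of the others was 117% to 142% with si-NC and 141% with si-SYISL. Its part in the Krt8 and Krt18 difference was not tested. Simple keratins are also made by mesothelium and trophoblast. Of 8 mesothelial markers 6 passed, and 5 (83.3%, against 46.3% of all features) were higher and 0 lower in both si-SYISL samples. Wt1 was at 1.02 ± 0.13, Nkain4 at 0.79 ± 0.45, Gpm6a at 0.52 ± 0.39, Msln at 0.05 ± 0.13, Upk1b at -0.01 ± 0.12 and Bnc1 at -0.15 ± 0.17. The last 4 were named after their values were seen. Nkain4 and Gpm6a were well above background on 1 of 3 si-NC arrays, and passed the filter only through the si-SYISL arrays, where they were higher. Msln and Upk1b lay near the median of all features and were counted as higher before it was subtracted. Nothing is therefore read from the count of 5. Lrrn4 and Upk3b were not well above background on any array. The summed mesothelial level was 1260% to 1360% with si-NC and 1410% to 1610% with si-SYISL, nearly all of it Msln (1250% to 1350% and 1380% to 1590%), and that of the others was 14.1% to 16.0% and 19.3% to 22.5%. The sum of 6 trophoblast markers was 83.1% to 92.3% and 80.7% to 88.1%, mostly Gata3 (76.4% to 86.1% and 70.4% to 79.6%). That of the others was 6.17% to 6.72% with si-NC and 8.43% to 10.3% with si-SYISL. Their part in the keratin differences was not tested either. Of 6 trophoblast markers 5 passed, and 4 (80%, against 46.3%) were higher and 0 lower in both si-SYISL samples. Nothing is read from this count, because Eomes and Elf5 passed the filter only through the si-SYISL arrays, where they were higher. Tfap2c differed by 0.48 ± 0.13 and Eomes by 0.40 ± 0.31, the latter well above background on 1 of 3 si-NC arrays. Elf5 differed by 0.15 ± 0.19 and was also well above background on 1 of 3 si-NC arrays. Gata3 differed by -0.29 ± 0.13. Elf5 and Gata3 were named after their values were seen. Cdx2 was not well above background on any array.

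The mesenchymal programme, to which Vim belongs, also lay near the rest of the array. Of 15 genes 14 passed, 0 were called, 5 (35.7%) were higher and 2 (14.3%) lower in both si-SYISL samples, and the median was -0.10. Cdh2, the cadherin of myoblasts, differed by 0.59 ± 0.12 (limma adjusted p = 0.115) at its brighter probe and by -0.16 at another. Zeb2, a repressor of epithelial genes, differed by -0.57 ± 0.16 (limma adjusted p = 0.235) at the probe that stands for it, with signals of 11837, 15482 and 12353 in si-NC and of 8513, 8606 and 9264 in si-SYISL. A second Zeb2 probe read 1171, 1380 and 1267 with si-NC and 30.0, 137 and 37.0 with si-SYISL, a difference of -4.19, so the 2 probes disagreed in size but not in direction. Of the related repressors, named after their values were seen, Snai2 differed by -0.31 ± 0.12, Snai1 by -0.29 ± 0.13 and Zeb1 by -0.26 ± 0.17, and Twist1 was not well above background on any array.

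Of 19 transcription factors known to act on keratin genes, 18 passed, 0 were called, 7 (38.9%) were higher and 6 (33.3%) lower in both si-SYISL samples, and the median was -0.15. The AP-1 genes Fos and Jun differed by -1.29 ± 0.29 and -0.74 ± 0.19 (limma adjusted p = 0.154 and 0.198). The other AP-1 genes listed lay on both sides of the median, and were named after their values were seen. They were Fosl1 (0.56 ± 0.24), Fosl2 (-0.02 ± 0.12), Junb (-0.21 ± 0.25), Jund (-0.42 ± 0.11) and Fosb (-0.45 ± 0.16). Fos had signals of 1943, 2239 and 2125 with si-NC and of 677, 959 and 738 with si-SYISL. The 8 lists hold 150 genes, of which 135 passed. Of these 135, 24 were higher and 14 lower at an unadjusted limma p under 0.05. Of all 28553 features, 4791 (16.8%) were higher and 1672 (5.86%) lower.

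**Figure D5:**
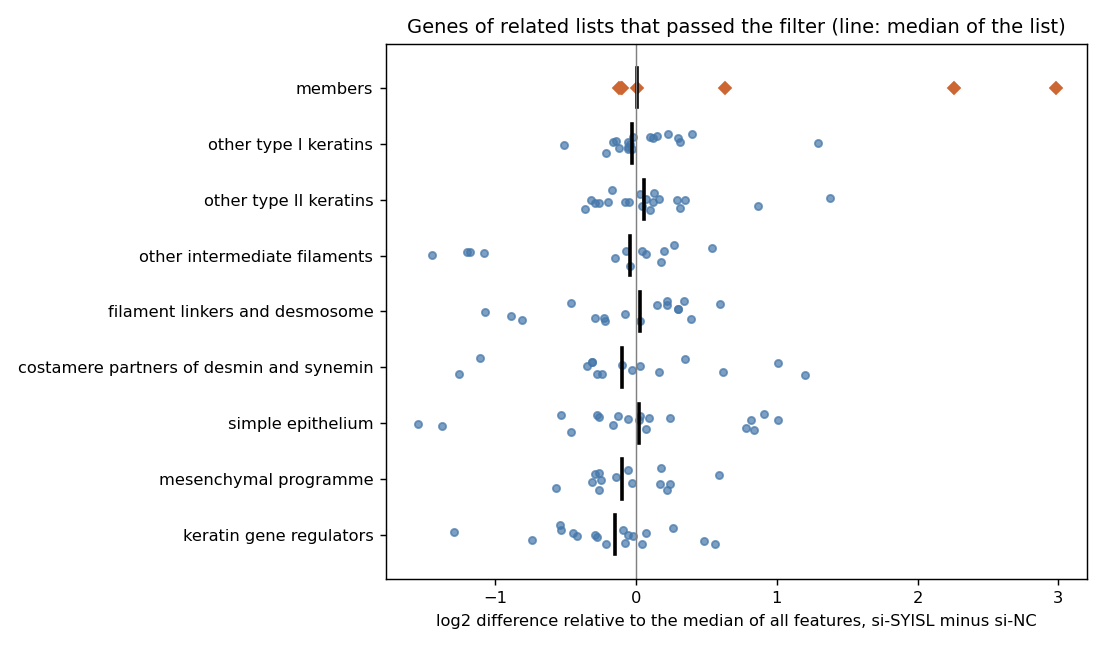
Log2 differences, relative to the median of all features, of the 7 members (orange diamonds) and of the genes of 8 related lists that passed the filter (blue points), with a vertical line at each median. The medians lie between -0.15 and 0.05, and the 2 highest points of the plot are Krt8 and Krt18.

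The genes whose profile over the 4 samples was most like those of Krt8 and Krt18 were sought among 16031 named genes, the 8 members left out, well above background on all arrays, by the root mean square distance between centred log2 levels. For Krt8 they were Slc7a8, an amino acid transporter gene (distance 0.04, difference 2.21 ± 0.25), Hsd3b1, a steroid dehydrogenase gene (0.13, 2.38 ± 0.37), and Cited4, a transcription cofactor gene (0.25, 1.81 ± 0.27). For Krt18 they were Hsd3b1 (0.43), Slc7a8 (0.54) and the olfactory receptor gene Olfr39 (0.65, 2.28 ± 0.16). Krt8 and Krt18 were 0.50 apart from each other, so that for Krt18 only Hsd3b1 of these was nearer than Krt8. Such a distance over 4 samples describes a shared pattern only. In bulk RNA a change in the share of cells that express a gene and a change within each cell cannot be told apart.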

How the data were processed

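The authors' deposited scanner files hold the intensity of each spot (gProcessedSignal, corrected for background and spatial trend on its own array), the median pixel intensity of spot and local background, and flags of 0 or 1 (unit other, per the file headers). Feature Extraction was version 11.0.1.1 per the file headers and 10.5.1.1 per the submitters' processing notes. Log2 values with nearly equal quantiles were deposited as a series matrix, used here only as an alternative.

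Of 39429 probes, 27234 were named through their RefSeq accession (GRCm38.p6 table) and 12195 were kept as unnamed features. Coordinates in the scanner files are of another build and were not used, and promoter windows and their sequences are RefSeq's. Outlier spots were left out, spots of a probe were averaged, and a gene was represented by its kept probe with the highest mean. Groups were compared with limma 3.58.1 in R 4.3.3 (lmFit, eBayes, Benjamini-Hochberg over 28553 features, two-sided, threshold 0.05), with 2.37 prior and 2 residual degrees of freedom, which limits precision. The fit was tested on simulated data. Members and lists were chosen with earlier results of these data known. Members take no test. Named genes were the members, the 2 non-overlapping genes of each list with the largest difference, list genes below background in 1 group, 5 muscle genes and 3 genes of nearest profile for each of the 2 most different members. Some genes that this rule names are not reported here. Equal replicate numbers did not mark pairs: deviations of same-numbered arrays from their group means correlated at -0.04 to 0. Figures were drawn with matplotlib 3.10.9 in Python 3.11.15.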

Additional observations from a re-analysis of the deposited data

How the results depend on the processing

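The count of 0 features past the threshold depended on the processing. It was 183 with normexp background, 1 with a median shift, 83 with the scan block, 904 with a variance trend and 9762 with the 6 arrays as 6 samples, where near-identical arrays count as separate samples. It was 6463 at an unadjusted p and 1155 at a fold of at least 2. It ranged from 0 to 1381 when 1 of the 4 samples was left out (276 without si-NC replicate 2 and 1381 without replicates 1 and 3 of si-NC), which assumes that the lone sample varies like the other group. With the replicate block it was 0, as it was with quantile normalisation, the series matrix, no filter, a filter on all 6 arrays, the mean of probes, every probe and within the first scan. Listed genes past the threshold went from 0 to 13 with a variance trend (5 higher and 8 lower) and to 38 at an unadjusted p.

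The differences of Krt8 and Krt18 kept their sign in each alternative that gave them, from 1.12 to 2.53 and from 1.60 to 3.64. Only the 6-array filter, which leaves out Krt7 and Krt18, gave none for the latter. The signs of Vim, Nes, Synm and Krt19 changed in at least 1 alternative and their values lay between -0.36 and 0.14. Dim spots limit Krt7, Krt20 and the si-NC level of Krt18.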

Other observations

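Of the marker genes of other cell types, Cd52 differed by more than the keratins. Cd52, a surface glycoprotein gene of leukocytes, had signals of 6.37, 4.53 and 6.68 intensity units with si-NC and of 538, 671 and 596 with si-SYISL, and was at least 33.0-fold higher, not being well above background on any si-NC array (limma adjusted p = 0.0842). Of the other 4 leukocyte markers with a probe, Laptm5 differed by 0.31 ± 0.17, Ptprc by 0.19 ± 0.20, Adgre1 by -0.07 ± 0.14 and Csf1r by -0.15 ± 0.13, the last 3 named after their values were seen. The summed level of the 5 was 60.3% to 61.6% of the array's 75th percentile with si-NC and 80.8% to 103% with si-SYISL, and without Cd52 it was 60.2% to 61.4% and 58.9% to 69.5%. Fabp7, a fatty acid binding protein gene of radial glia, was at least 6.82-fold higher (signals of 17.4, 17.9 and 18.9 against 113, 138 and 122; limma adjusted p = 0.0842). Olig2 was not well above background on any array. The summed level of the 8 neural and glial markers was 40.0% to 45.4% with si-NC and 39.6% to 44.1% with si-SYISL. Of 6 endothelial markers Pecam1 differed by 0.02 ± 0.12 and Kdr by 0.00 ± 0.11, and Tie1 was not well above background on any array. The 5 that passed lay between 0.00 and 0.07 relative to the median of all features. The summed level of the 6, with that median not subtracted, was 98.0% to 107% with si-NC and 113% to 117% with si-SYISL.

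Among muscle markers, Tnnt3, the fast troponin T gene, differed by 1.24 ± 0.16 and Actc1, the cardiac actin gene of young myotubes, by 0.85 ± 0.14 (limma adjusted p = 0.0938 and 0.104). Ckm, muscle creatine kinase, differed by 0.65 ± 0.15, Myh3, embryonic myosin, by 0.62 ± 0.12, and the myogenic factor genes Myog and Myod1 by -0.02 ± 0.17 and -0.78 ± 0.13. All 12 muscle markers passed and 0 were called, with a median of -0.04. In both si-SYISL samples 5 (41.7%, against 46.3% of all features) were higher and 2 (16.7%) lower. Their summed level was 5920% to 6370% with si-NC and 7340% to 7520% with si-SYISL. Within it, Myh3 was at 1040% to 1070% and 1680% to 1920%. Chrna1, the largest part, went the other way, at 2760% to 2850% and 2510% to 2670%, and was named after its value was seen. The part of the muscle markers in the keratin differences was not tested.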
